A study of Mus musculus with 12 samples.

Results

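The genes described here belong to 8 families of small secreted proteins, chosen by symbol from the platform annotation: the beta-defensins (Defb), lipocalins (Lcn), cystatins (Cst), ribonucleases (Rnase), the Pate genes, the whey acidic protein domain genes (Wfdc), the Kazal-type inhibitors (Spink) and the Kunitz-type inhibitors (Spint). Each symbol had to continue with a digit after the family name, and each gene was read from its brightest probe set that named no other gene. This gave 67 of 18194 genes: 20 Defb, 11 Wfdc, 8 Lcn, 8 Cst, 7 Spink, 6 Rnase, 4 Pate and 3 Spint genes. The rule reads symbols and no measured value, but the families were picked with earlier results of these data known. Total RNA of mice was hybridised to 12 arrays, which fall into 6 groups of 2, lettered a and b. Smad3-/- mice, in which the gene of the TGF-beta signal carrier Smad3 is disrupted in the germline, were on a high fat diet (Smad3-/- HFD) or a regular diet (Smad3-/- RD), and their background mixed the strains C57BL/6 and NIH Black Swiss. Wild-type mice (WT), labelled C57BL/6, were on the same diets (WT HFD and WT RD), and the labels put the fat content of the high fat diet at 55%. In a separate experiment, diet-induced obese (DIO) mice labelled C57J/B6 received the antibody 1D11 against TGF-beta or the IgG 13C4, by intraperitoneal injection, 3 a week, over 8 weeks. The strain label of the Smad3-/- mice speaks of NIH Black Swiss females, without saying whether the sampled mice or the parents of the line are meant. The labels give no tissue or age, no sex for the other groups, and genotype and strain background cannot be told apart.

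These families are known for their part in secretions. Beta-defensins are short cationic peptides that kill microbes, and lipocalins carry small hydrophobic molecules or bacterial iron carriers. Cystatins inhibit cysteine proteases, Kazal and Kunitz domains inhibit serine proteases, and many proteins with a whey acidic protein domain do so or kill bacteria. In male rodents, clusters of genes from each of these families are transcribed along the epididymis, the duct on the testis in which sperm mature, and the abdominal fat pad commonly sampled in male mice lies against that duct. Other members work elsewhere, for example cystatin C in most tissues, Lcn2 in neutrophils and inflamed epithelia, and Spink5 in skin.

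Levels are log2 values after robust multi-array averaging (RMA), and a difference of 1 on that scale is a doubling. The 8 diet and genotype arrays had medians over all probe sets of 6.32 to 6.39 and the 4 antibody arrays of 6.03 to 6.04, so levels are not set against each other across the experiments. Within groups the arrays correlated at r = 0.992 to 0.996 across genes, and the number of arrays limits the precision. Whether a and b are different animals is not in the labels, so p-values reflect the spread of these arrays only, and that spread may be technical. Adipoq, the gene of the adipocyte hormone adiponectin, read 13.01 to 14.18 on all 12 arrays. A measure of RNA quality, the signal of Gapdh at the 3' end of the transcript minus that at the 5' end, was 0.37 to 0.39 in Smad3-/- HFD, 0.28 to 0.41 in Smad3-/- RD, 0.36 to 0.50 in WT HFD and 0.12 to 0.14 in WT RD. The same measure of actin was 0.90 to 0.99 in Smad3-/- HFD, 0.96 to 1.12 in Smad3-/- RD, 0.96 to 0.99 in WT HFD and 0.77 to 0.80 in WT RD, so WT RD stood apart in both. With anti-TGF-beta it was 0.75 to 0.87 and with IgG 0.61 to 0.67 for actin, and 0.08 to 0.14 with anti-TGF-beta and 0.02 to 0.10 with IgG for Gapdh. The part of RNA quality in the differences below was not tested.

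Sex-linked genes were read as a check of the samples. They are set against the array medians over all probe sets. Xist, the RNA that silences an X chromosome in female cells, read 7.96 to 8.28 on the 8 diet and genotype arrays, above their medians. Eif2s3y, a Y-linked translation factor gene, read 5.67 to 6.15 there, below the medians. On the 4 antibody arrays Xist read 6.11 to 6.32 and Eif2s3y 8.07 to 8.49, both above the medians of these arrays. Of the other Y-linked genes, Kdm5d read 5.77 to 6.57 and Uty 6.72 to 7.09 on the 8 arrays, and 6.18 to 6.66 and 6.43 to 6.66 on the 4. Xist and Uty were thus above the array medians over all probe sets in both experiments. Kdm5d was above these medians on the 4 arrays and, among the 8, on array a of Smad3-/- HFD only. Against the higher median over genes, Xist, Uty and Kdm5d were below on the 4 arrays, and Uty was below on some of the 8. None of these genes was called between groups in any comparison. On the 8 arrays, the epididymal and sperm transcripts described below were measured with Xist and Uty above and Eif2s3y below the median over all probe sets. Neither the sex of the mice nor the source of these transcripts was tested.

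On the regular diet, genes of all 8 families were higher in Smad3-/- than in WT mice, many of them from levels below the array median in WT. By limma's moderated test at a threshold of 0.05, adjusted by Benjamini and Hochberg's method over all genes, 36 of the 67 members were higher in Smad3-/- RD and 3 were lower. Over all genes, 8.4% were called higher and 15.6% lower. The median log2 difference of the members was 0.47, against 0.04 over all genes, and the differences ran from -2.11 to 8.89. Called higher were 13 of 20 Defb, 5 of 8 Lcn, 5 of 7 Spink, 3 of 3 Spint, 3 of 8 Cst, 3 of 11 Wfdc, 2 of 4 Pate and 2 of 6 Rnase genes. Of the 36, 29 were below the array median over genes on both WT RD arrays and 27 were above it on both Smad3-/- RD arrays. A log2 difference of at least 2 was reached by 23 members and by 81 genes in all. In pieces of tissue, fewer cells of a type and less RNA per cell cannot be told apart.

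Most of the measured epididymal genes outside these families were also higher in Smad3-/- RD. Of 31 listed, 19 had a probe set, and in Smad3-/- RD 12 were higher and 1 was lower than in WT RD. Gpx5, a glutathione peroxidase of epididymal fluid, read 7.00 and 7.09 in Smad3-/- HFD, 13.77 and 14.09 in Smad3-/- RD, 7.15 and 6.85 in WT HFD and 7.10 and 6.76 in WT RD. Adam7, a sperm-binding surface protein of the epididymis, read 9.06 and 9.47 in Smad3-/- HFD, 12.24 and 12.30 in Smad3-/- RD, 10.56 and 10.84 in WT HFD and 5.90 and 5.46 in WT RD. Gpx5 was thus high in a single group, whereas Adam7 was lowest in WT RD and differed between all 4 groups without overlap. The log2 of the list's summed level was 14.65 to 14.74 in Smad3-/- HFD, 16.00 to 16.03 in Smad3-/- RD, 15.43 to 15.46 in WT HFD and 13.94 to 13.96 in WT RD. The brightest genes weigh most in such a sum. In WT RD, Npc2 read 12.96 on both arrays and Cd52 11.97 and 11.94, and they made up much of it. On the antibody arrays Npc2 read 13.47 to 13.98 and Gpx5 5.51 to 5.91, so the sum can be high where Gpx5 is low. General epithelial markers, such as the keratins Krt8 and Krt18, were higher in 9 of 14 and lower in 1 in Smad3-/- RD, and 6 of 7 white adipocyte markers were lower. Germ cell markers were higher in 6 of 14 and lower in 1, with a summed level of 10.31 to 10.34 in Smad3-/- RD and 9.70 to 9.82 in WT RD. Of 8 skeletal muscle markers 5 were higher and 2 lower, with a summed level of 10.19 to 10.21 in Smad3-/- RD and 11.28 to 11.53 in WT RD. Of the 9 markers of seminal vesicle, prostate and vas deferens, 1 was higher and 1 lower, and their summed level was 8.70 to 8.97 in Smad3-/- RD and 8.91 to 9.06 in WT RD. The part of any of these tissues in the members' differences was not tested.

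**Figure D1:**
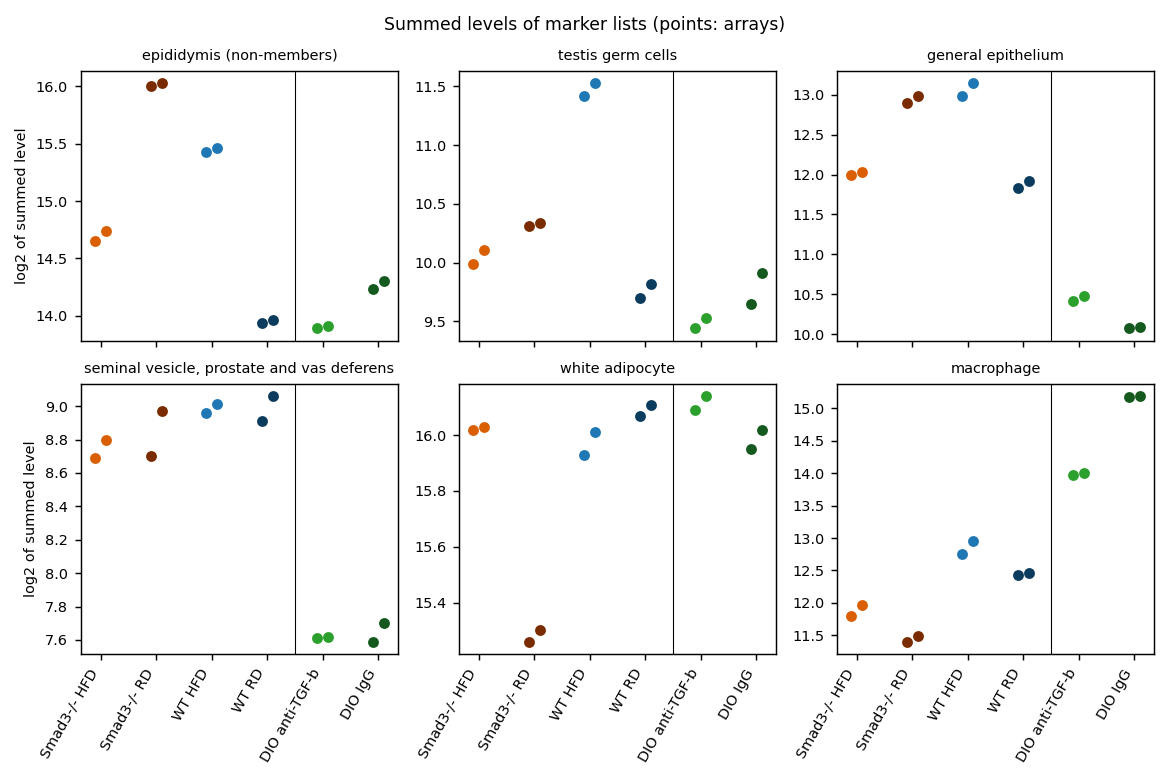
Log2 of the summed level of 6 marker lists on each array (points), for Smad3-/- and WT mice on high fat (HFD) or regular diet (RD) and, right of the line, obese mice (DIO) given anti-TGF-beta or IgG. The vertical axes differ between panels and do not start at 0. The epididymis list, without members of the 8 families, was at 16.00 to 16.03 in Smad3-/- RD and at 13.94 to 13.96 in WT RD. Npc2 makes up much of its sum in WT RD and on the antibody arrays. The germ cell list was at 11.42 to 11.53 in WT HFD.

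The lipocalins held the 2 largest differences of all members. Lcn5, an epididymal carrier of retinoic acid, read 5.21 and 5.55 in Smad3-/- HFD, 14.01 and 14.04 in Smad3-/- RD, 8.93 and 9.27 in WT HFD and 5.05 and 5.22 in WT RD. Lcn8, its neighbour on chromosome 2 and likewise an epididymal lipocalin, read 4.90 and 5.16 in Smad3-/- HFD, 13.77 and 13.76 in Smad3-/- RD, 5.36 and 5.28 in WT HFD and 5.07 and 4.95 in WT RD. Both were far up in Smad3-/- RD, but in WT HFD Lcn5 stood well above its WT RD level and Lcn8 did not. On the regular diet, Lcn5 was higher in Smad3-/- by 8.89 ± 0.14 (SE) and Lcn8 by 8.76 ± 0.14 (limma adjusted p = 4.03e-26 for each). No protein-coding gene lies between Lcn8 and Lcn5 in RefSeq's annotation of GRCm38.p6. Because these neighbours parted in WT HFD, the 300 bases around each gene's start are shown, Lcn8 at chr2:25652868-25653167 and Lcn5 at chr2:25657702-25658001, both on the plus strand, from RefSeq's GRCm38.p6 table, with capitals marking matches on either strand to TATAAA, the core promoter element bound by the general transcription machinery, or to the androgen receptor half-site TGTTCT. No matches overlap in the sequences shown.
Lcn8: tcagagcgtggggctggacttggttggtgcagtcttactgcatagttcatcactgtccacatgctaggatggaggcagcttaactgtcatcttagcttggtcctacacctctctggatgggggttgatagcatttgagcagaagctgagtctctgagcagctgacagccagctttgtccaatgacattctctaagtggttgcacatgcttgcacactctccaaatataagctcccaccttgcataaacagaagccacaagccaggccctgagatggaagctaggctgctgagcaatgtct
Lcn5: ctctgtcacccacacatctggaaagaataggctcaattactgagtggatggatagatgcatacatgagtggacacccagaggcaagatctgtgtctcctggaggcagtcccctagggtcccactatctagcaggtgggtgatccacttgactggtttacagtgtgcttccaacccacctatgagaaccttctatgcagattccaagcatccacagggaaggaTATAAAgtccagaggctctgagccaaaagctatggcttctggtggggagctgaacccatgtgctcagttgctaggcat
Lcn5 held TATAAA on the forward strand at position -28 from the start, and neither motif was found in these letters for Lcn8. Promoters were found for 50 of the 67 members. TATAAA occurred in 16.0% of these and in 14.1% of all 27025 promoters in the table, and TGTTCT in 30.0% and 19.2%. Among the members' promoters, TGTTCT was in 9 of 26 genes higher in Smad3-/- RD and in 6 of 24 others. A match describes letters and does not show a bound site.

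Further lipocalins followed Lcn8 or Lcn5. Lcn9, which is transcribed in the epididymis, read 4.99 and 5.16 in Smad3-/- HFD, 11.44 and 11.28 in Smad3-/- RD, 4.72 and 4.83 in WT HFD and 4.85 and 5.15 in WT RD, so it was high on the Smad3-/- RD arrays alone. Lcn12, another epididymal lipocalin, read 5.19 and 5.43 in Smad3-/- HFD, 8.12 and 8.00 in Smad3-/- RD, 5.70 and 6.00 in WT HFD and 4.72 and 4.38 in WT RD, with no overlap between any of the 4 groups. Lcn2, which binds bacterial siderophores and is made by neutrophils and inflamed epithelia, read 7.36 and 7.45 in Smad3-/- HFD, 12.98 and 13.26 in Smad3-/- RD, 8.85 and 9.27 in WT HFD and 7.18 and 7.10 in WT RD. It too was highest in Smad3-/- RD. The log2 differences on the regular diet were 6.36 for Lcn9, 5.98 for Lcn2 and 3.51 for Lcn12, with SEs of 0.12 to 0.15 (limma adjusted p of at most 1.64e-16). Beside the difference of Lcn2, 2 of 9 neutrophil markers were higher and 1 lower in Smad3-/- RD, and their summed level was 10.06 to 10.11 in Smad3-/- RD and 9.94 to 9.96 in WT RD. Lcn3 and Lcn4, lipocalins of the nose in mice, and Lcn11 were called in no comparison, and on the regular diet their log2 differences were 0.19, 0.16 and 0.20.

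**Figure D2:**
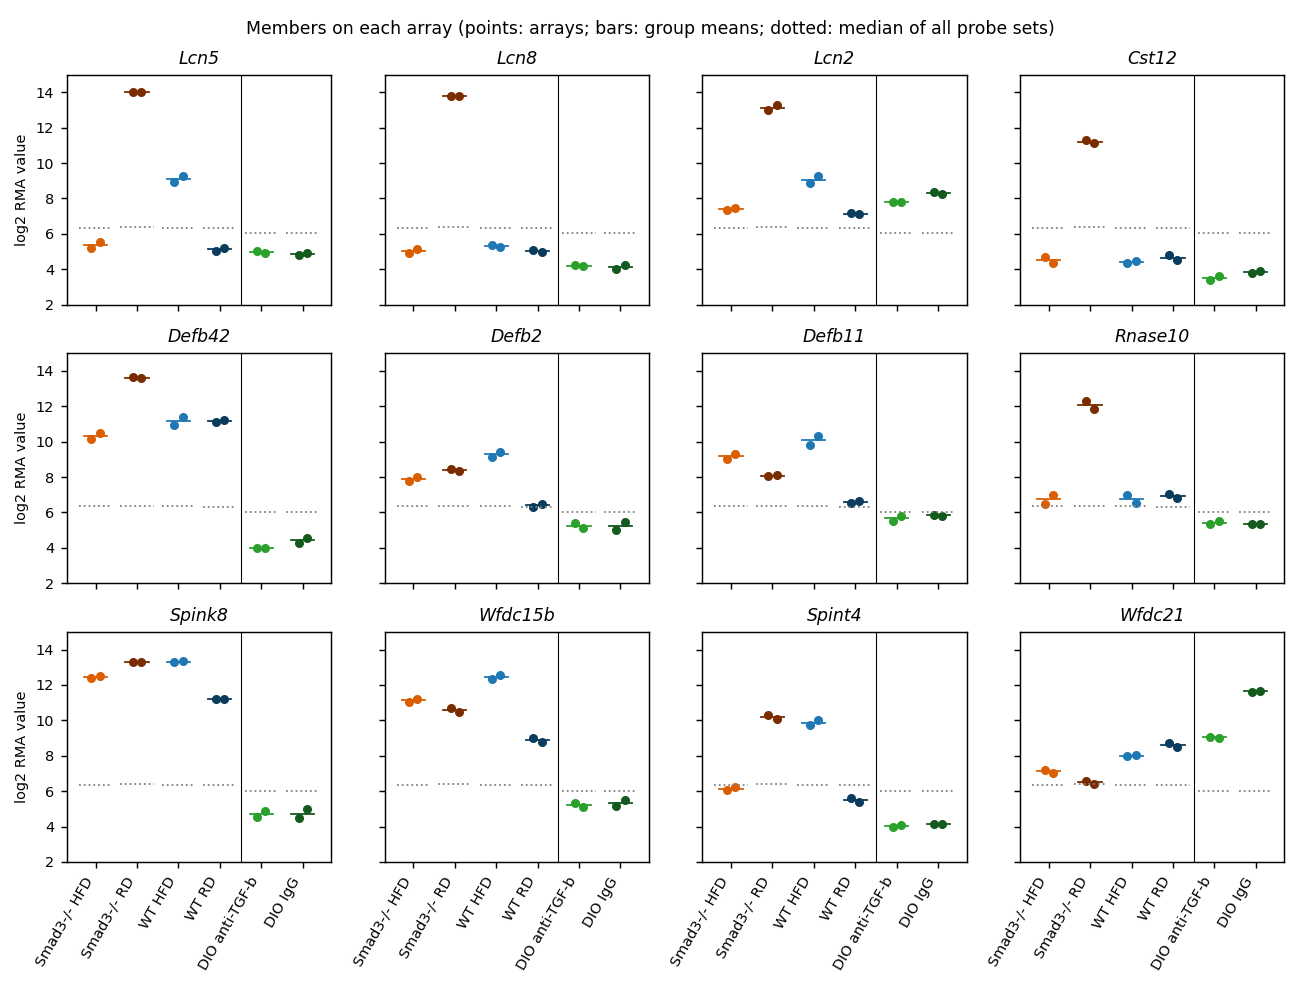
Log2 RMA values of 12 members on each array (points) with group means (bars) and the median of all probe sets (dotted), for Smad3-/- and WT mice on high fat (HFD) or regular diet (RD) and, right of the line, obese mice (DIO) given anti-TGF-beta or IgG, which are not compared in level with the 8 others. Among the 8 arrays, Lcn8, Cst12 and Rnase10 were high in Smad3-/- RD only, Defb11, Wfdc15b and Defb2 were highest in WT HFD, and Wfdc21 was lowest in Smad3-/- RD.

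Among the cystatins, ribonucleases and Pate genes, Cst11, Cst12, Rnase10, Pate5 and Pate6 had large differences, and the other called members had differences of under 1 on the log2 scale. Cst12, a cystatin of testis and epididymis, read 4.67 and 4.38 in Smad3-/- HFD, 11.30 and 11.11 in Smad3-/- RD, 4.37 and 4.48 in WT HFD and 4.80 and 4.52 in WT RD. Cst11, an epididymal cystatin with 1 protein-coding gene between it and Cst12, read 3.83 and 3.87 in Smad3-/- HFD, 10.22 and 10.35 in Smad3-/- RD, 3.84 and 3.52 in WT HFD and 3.74 and 3.90 in WT RD. Both were high in Smad3-/- RD alone, with log2 differences from WT RD of 6.54 ± 0.15 and 6.46 ± 0.15 (SE, limma adjusted p of at most 9.52e-23). Cst3 encodes cystatin C, the protease inhibitor made by most tissues, and it went the other way, at 11.88 and 12.14 in Smad3-/- HFD, 11.86 and 11.53 in Smad3-/- RD, 12.33 and 12.51 in WT HFD and 12.32 and 12.25 in WT RD. On the regular diet it was lower in Smad3-/- by 0.59 on the log2 scale (log2 difference -0.59 ± 0.12, limma adjusted p = 0.000258). Macrophages, which make much cystatin C, had 7 of 8 markers lower in the same comparison, with a summed level of 11.40 to 11.49 in Smad3-/- RD and 12.43 to 12.46 in WT RD, and their part in the fall of Cst3 was not tested.

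Rnase10, a ribonuclease-like protein of the proximal epididymis that in mice is needed for sperm to pass into the oviduct, read 6.49 and 6.98 in Smad3-/- HFD, 12.28 and 11.84 in Smad3-/- RD, 6.99 and 6.53 in WT HFD and 7.05 and 6.83 in WT RD. The 3 other groups overlapped in range, and Smad3-/- RD stood 5.12 ± 0.17 above WT RD on the log2 scale (SE, limma adjusted p = 2.36e-19). Rnase4, a ribonuclease made by liver and many other tissues, read 9.24 and 9.49 in Smad3-/- HFD, 8.96 and 8.87 in Smad3-/- RD, 9.25 and 9.25 in WT HFD and 9.40 and 9.66 in WT RD. It was lower in Smad3-/- RD than in WT RD, with a log2 difference of -0.61 ± 0.11 (limma adjusted p = 8.35e-05). Pate5 read 4.73 and 4.40 in Smad3-/- HFD, 9.45 and 9.36 in Smad3-/- RD, 4.34 and 4.58 in WT HFD and 4.51 and 4.36 in WT RD. Pate6, which lies next to it on chromosome 9, read 6.24 and 6.20 in Smad3-/- HFD, 9.99 and 9.61 in Smad3-/- RD, 6.49 and 6.03 in WT HFD and 6.10 and 6.00 in WT RD. These neighbours thus shared the pattern of Rnase10, with differences of 4.97 ± 0.15 and 3.75 ± 0.16 on the regular diet (limma adjusted p of at most 8.89e-17). Pate4, a protein of seminal vesicle fluid in mice, read 5.46 and 5.55 in Smad3-/- RD and 5.18 and 5.16 in WT RD, and its difference of 0.34 did not pass (limma adjusted p = 0.0985).

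Among the 20 beta-defensins, 13 were higher in Smad3-/- RD than in WT RD and none was lower. Defb42, an epididymal beta-defensin of the mouse, read 10.13 and 10.49 in Smad3-/- HFD, 13.65 and 13.58 in Smad3-/- RD, 10.96 and 11.39 in WT HFD and 11.13 and 11.21 in WT RD. Unlike the lipocalins above, it was far above the array median in all 4 groups, and it was still 2.44 ± 0.13 higher in Smad3-/- RD than in WT RD (SE, limma adjusted p = 1.6e-14). Defb35 read 4.74 and 4.87 in Smad3-/- HFD, 9.49 and 9.22 in Smad3-/- RD, 5.06 and 4.99 in WT HFD and 5.35 and 5.00 in WT RD. Defb15 read 6.95 and 6.95 in Smad3-/- HFD, 9.74 and 10.50 in Smad3-/- RD, 7.16 and 6.79 in WT HFD and 6.80 and 6.95 in WT RD. Both were high in Smad3-/- RD alone, with regular-diet differences of 4.18 and 3.25. They lie side by side on chromosome 8, in a run of 7 measured beta-defensins (Defb2, Defb10, Defb9, Defb11, Defb15, Defb35 and Defb13) with no other protein-coding gene between them.

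Within that run, Defb11, next to Defb15, and Defb2, at the far end, had another pattern. Defb11 read 9.00 and 9.33 in Smad3-/- HFD, 8.04 and 8.12 in Smad3-/- RD, 9.80 and 10.34 in WT HFD and 6.56 and 6.64 in WT RD. Defb2, whose product is induced in mouse airways by bacterial lipopolysaccharide, read 7.77 and 7.98 in Smad3-/- HFD, 8.46 and 8.32 in Smad3-/- RD, 9.15 and 9.43 in WT HFD and 6.33 and 6.47 in WT RD. Both were lowest in WT RD and highest in WT HFD, and their regular-diet differences were 1.48 ± 0.15 and 1.99 ± 0.15 (SE, limma adjusted p of at most 6.6e-09). The probe set of Defb11 is of a type that can bind several transcripts, so related sequences may add to its signal. On chromosome 2, Defb29 and Defb21 are direct neighbours. Defb29 read 5.17 and 5.36 in Smad3-/- HFD, 9.28 and 8.71 in Smad3-/- RD, 6.45 and 6.65 in WT HFD and 4.83 and 5.04 in WT RD. Defb21 read 5.21 and 5.13 in Smad3-/- HFD, 9.20 and 9.08 in Smad3-/- RD, 5.52 and 5.28 in WT HFD and 5.29 and 5.33 in WT RD. The regular-diet differences were 4.06 and 3.83, and in WT HFD Defb29 was above WT RD while the arrays of Defb21 overlapped those of WT RD. Defb1, an antibacterial peptide of kidney and airway epithelia, read 6.28 and 6.66 in Smad3-/- RD and 5.71 and 5.86 in WT RD. Its difference of 0.68 passed (limma adjusted p = 0.000827), but without array b of Smad3-/- RD it was 0.50 and did not pass (limma adjusted p = 0.0503).

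The protease inhibitors of the Spink and Spint families moved in most members. Spink8, known as an epididymal Kazal-type inhibitor in the mouse, read 12.39 and 12.50 in Smad3-/- HFD, 13.29 and 13.27 in Smad3-/- RD, 13.30 and 13.34 in WT HFD and 11.23 and 11.23 in WT RD. Spink10, of the same family, read 8.71 and 9.09 in Smad3-/- HFD, 8.92 and 8.50 in Smad3-/- RD, 9.62 and 10.20 in WT HFD and 4.90 and 4.82 in WT RD. Both were lowest in WT RD, with regular-diet differences of 2.04 ± 0.12 and 3.85 ± 0.17 (SE, limma adjusted p of at most 2.34e-13). Spink2, an inhibitor of the sperm protease acrosin, and Spink12 were up in Smad3-/- RD, by 3.31 and 3.01. Spink2 read 6.31 and 6.11 in Smad3-/- HFD, 9.54 and 9.51 in Smad3-/- RD, 6.76 and 6.48 in WT HFD and 6.21 and 6.22 in WT RD, so a single group stood apart. Spink5, the inhibitor whose loss causes a skin barrier disease in humans, read 6.83 and 6.85 in Smad3-/- RD and 4.46 and 4.55 in WT RD, a difference of 2.34, beside 1 of 9 skin markers higher and 1 lower. Spink1, the pancreatic secretory inhibitor, read 5.76 and 5.91 in Smad3-/- RD and 6.06 and 5.74 in WT RD, and was called in no comparison.

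Spint4 encodes a Kunitz domain protein and lies on chromosome 2. It read 6.08 and 6.21 in Smad3-/- HFD, 10.29 and 10.05 in Smad3-/- RD, 9.72 and 10.03 in WT HFD and 5.63 and 5.38 in WT RD, which makes it the Kunitz gene with the widest range. Spint2, a membrane inhibitor of epithelial serine proteases such as matriptase, read 10.22 and 10.47 in Smad3-/- HFD, 12.16 and 11.83 in Smad3-/- RD, 11.49 and 11.46 in WT HFD and 9.98 and 10.03 in WT RD. The summed level of 14 general epithelial markers was 11.99 to 12.03 in Smad3-/- HFD, 12.90 to 12.99 in Smad3-/- RD, 12.98 to 13.15 in WT HFD and 11.83 to 11.92 in WT RD, and their part in these differences was not tested. On the regular diet, Spint4 differed by 4.67 ± 0.14 and Spint2 by 1.99 ± 0.11 (SE, limma adjusted p of at most 2.78e-14). Spint1, the inhibitor paired with Spint2 in epithelia, read 7.93 and 7.79 in Smad3-/- RD and 7.12 and 7.13 in WT RD, a difference of 0.74 ± 0.15 (limma adjusted p = 0.000323).

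Of the 11 Wfdc genes, 3 were higher and 1 lower in Smad3-/- RD than in WT RD. Wfdc15b, an antibacterial protein known from mouse kidney and epididymis, read 11.02 and 11.23 in Smad3-/- HFD, 10.71 and 10.46 in Smad3-/- RD, 12.34 and 12.56 in WT HFD and 9.00 and 8.75 in WT RD. Wfdc6a read 8.98 and 8.97 in Smad3-/- HFD, 9.42 and 10.16 in Smad3-/- RD, 9.93 and 9.96 in WT HFD and 6.83 and 6.89 in WT RD. Both were lowest in WT RD, and the regular-diet differences were 1.71 ± 0.13 and 2.93 ± 0.16 (SE, limma adjusted p of at most 2.76e-11). Wfdc2, the human counterpart of which is the epididymal protein HE4, read 6.90 and 6.75 in Smad3-/- RD and 6.13 and 6.10 in WT RD, a difference of 0.71 (limma adjusted p = 0.000406). Wfdc21, which lies on chromosome 11 beside Wfdc18, was the Wfdc gene that went down, at 7.20 and 7.02 in Smad3-/- HFD, 6.56 and 6.42 in Smad3-/- RD, 7.97 and 8.05 in WT HFD and 8.70 and 8.50 in WT RD. Its regular-diet difference was -2.11 ± 0.11 (limma adjusted p = 1.39e-14), the lowest of the 67 members. Since Wfdc15b and Spint4 were high in WT HFD as well as in Smad3-/- RD, the 300 bases around their starts are shown for comparison with the 2 lipocalins, Wfdc15b at chr2:164221614-164221913 on the minus strand and Spint4 at chr2:164698251-164698550 on the plus strand of GRCm38.p6, from RefSeq, with capitals as above.
Wfdc15b: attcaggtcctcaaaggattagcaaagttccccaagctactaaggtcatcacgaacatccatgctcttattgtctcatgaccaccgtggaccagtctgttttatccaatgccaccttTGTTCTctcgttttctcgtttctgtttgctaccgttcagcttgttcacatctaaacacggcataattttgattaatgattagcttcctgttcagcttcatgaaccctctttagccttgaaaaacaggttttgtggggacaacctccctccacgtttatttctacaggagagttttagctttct
Spint4: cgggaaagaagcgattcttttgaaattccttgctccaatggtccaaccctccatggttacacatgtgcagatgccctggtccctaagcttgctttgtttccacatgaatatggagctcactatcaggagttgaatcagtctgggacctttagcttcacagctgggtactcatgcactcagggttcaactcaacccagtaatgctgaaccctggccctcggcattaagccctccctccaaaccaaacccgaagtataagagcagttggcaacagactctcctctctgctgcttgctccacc
Wfdc15b held TGTTCT on the forward strand of the gene at position -133, and neither motif was found in the letters of Spint4. Wfdc15a, the direct neighbour of Wfdc15b, was called in no comparison.

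**Figure D3:**
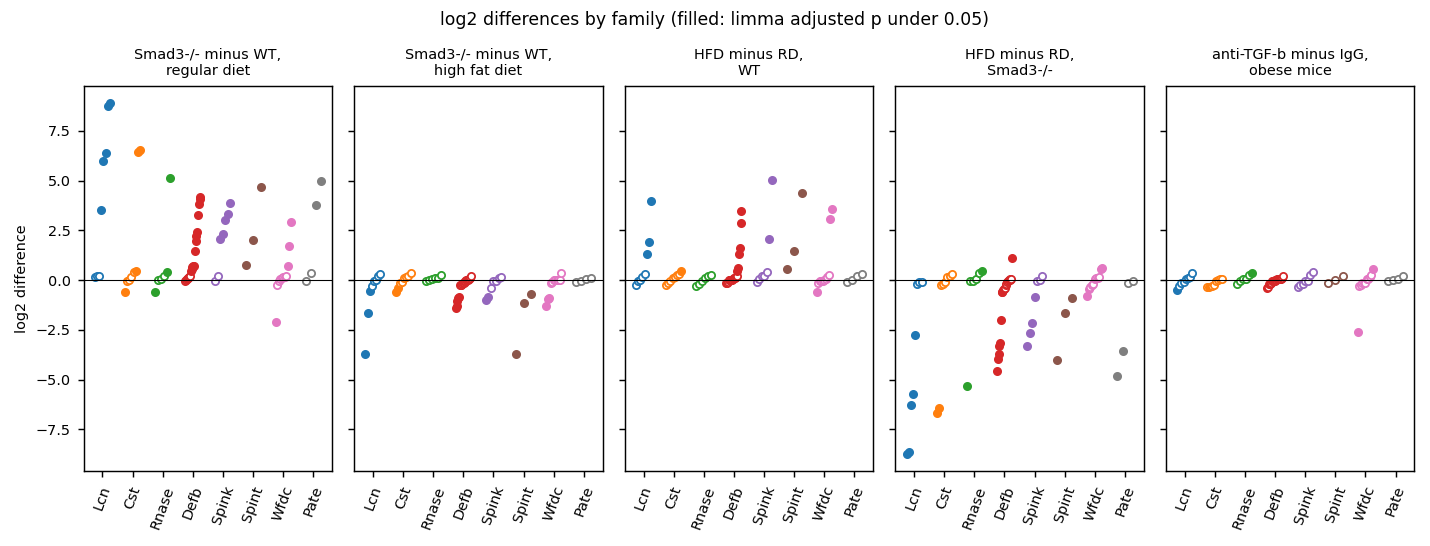
Log2 differences of the members by family (points) in 5 comparisons, filled where limma's adjusted p was under 0.05. Most filled points lie above 0 in Smad3-/- minus WT on regular diet, all 18 lie below 0 on the high fat diet, and few of the antibody comparison are filled.

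On the high fat diet, every called member was lower in Smad3-/-, and 49 of the 67 members were not called. Of the 18 called, 14 were called higher on the regular diet. Wfdc21 and Cst3 were called lower on both diets, and Defb9 and Cst13 were not called on the regular diet. No member was higher in Smad3-/- HFD than in WT HFD by limma at an adjusted p under 0.05, while 18 were lower, and 4.74% and 6.05% of all genes were called higher and lower. At an unadjusted p under 0.05, 2 members were higher. The median log2 difference of the members was -0.06, against -0.01 over all genes. Spint4 and Lcn5, whose array values are given above, were lower in Smad3-/- HFD by 3.73 and 3.72 on the log2 scale, as log2 differences of -3.73 ± 0.14 and -3.72 ± 0.14 (SE, limma adjusted p of at most 2.06e-17). Lcn2, Defb2 and Wfdc15b differed by -1.65, -1.41 and -1.33, and Defb29, Spint2, Spink10, Wfdc6a, Defb11, Wfdc21, Spink8 and Defb42 by -1.29 to -0.86 (limma adjusted p of at most 0.0001). Defb9, the neighbour of Defb11, read 4.42 and 4.26 in Smad3-/- HFD and 5.08 and 5.68 in WT HFD, both below the array median, and its difference was -1.04. Lcn12 passed at -0.54 (limma adjusted p = 0.0202). Spint1 was lower by 0.70 on the log2 scale (log2 difference -0.70), but without array b of WT HFD the difference was -0.52 and did not pass (limma adjusted p = 0.0735). Cst3 differed by -0.41, which did not pass without array b of WT HFD, at -0.32, or without array a of Smad3-/- HFD, at -0.28, nor in a fit without the intensity trend (adjusted p = 0.0611) or with the mean of probe sets (adjusted p = 0.0597). By family, 5 Defb, 3 Lcn, 3 Spint, 3 Wfdc, 2 Cst and 2 Spink genes were lower, and no Rnase or Pate gene was.

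Marker lists moved in the same comparison. Of the 19 epididymal genes outside the families, 8 were lower in Smad3-/- HFD than in WT HFD and 0 were higher. Of 14 germ cell markers 7 were lower and 0 higher, with a summed level of 9.99 to 10.11 in Smad3-/- HFD and 11.42 to 11.53 in WT HFD. Prm1, the sperm protamine, read 7.00 and 7.27 in Smad3-/- HFD, 7.76 and 7.69 in Smad3-/- RD, 9.65 and 9.66 in WT HFD and 6.58 and 6.71 in WT RD, so germ cell signal was highest in WT HFD, not in Smad3-/- RD. General epithelial markers were lower in 9 of 14. All 8 skeletal muscle markers were higher, with a summed level of 14.30 to 14.40 in Smad3-/- HFD and 9.80 to 9.83 in WT HFD. The part of these lists in the members' differences was not tested.

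The 36 members higher in Smad3-/- RD are split here by whether they were also called lower in Smad3-/- HFD than in WT HFD. These 2 genotype comparisons share no array. The split follows the threshold, and Spink2, at -0.41 on the high fat diet, lay close to it (limma adjusted p = 0.0516). Beside the 36, 5 further members were called in at least 1 of these comparisons and 26 in neither. There were 14 genes higher on the regular diet and lower on the high fat diet in Smad3-/-, which is 20.9% of the 67 members, against 1.87% of all genes. They make up 38.9% of the 36 and 77.8% of the 18, and over all genes those shares were 22.3% and 30.9%. They are Defb2, Defb11, Defb29, Defb42, Lcn2, Lcn5, Lcn12, Spink8, Spink10, Spint1, Spint2, Spint4, Wfdc6a and Wfdc15b. The other 22 of the 36 were not called lower on the high fat diet, among them Lcn8, Lcn9, Cst11, Cst12, Rnase10, Pate5, Pate6, Defb15, Defb21, Defb35, Spink2, Spink5 and Spink12. The 14 differed among themselves in which group was highest. In 5 of them (Defb2, Defb11, Spink8, Spink10 and Wfdc15b) both WT HFD arrays were above both Smad3-/- RD arrays, which 26.1% of all genes also showed. In 7 (Defb29, Defb42, Lcn2, Lcn5, Lcn12, Spint2 and Spint4) both Smad3-/- RD arrays were above both WT HFD arrays, which 24.5% of all genes showed, and in Spint1 and Wfdc6a the groups overlapped. All 3 Spint genes were among the 14 and no Pate, Cst or Rnase gene was, and the other families were split.

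**Figure D4:**
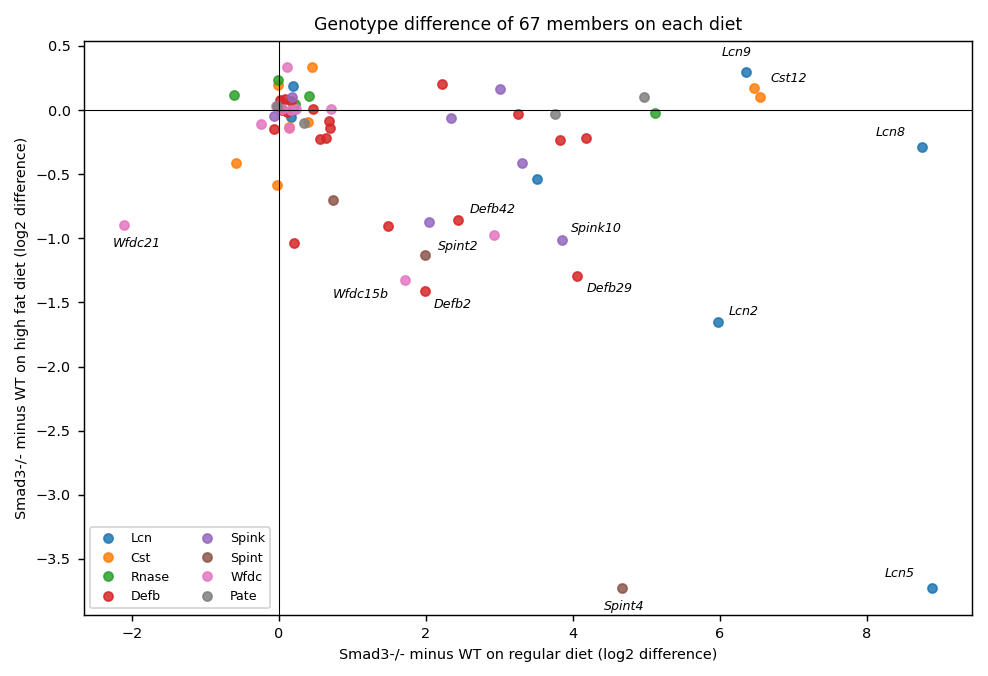
Log2 difference between Smad3-/- and WT mice on the regular diet (horizontal axis) and on the high fat diet (vertical axis) for each of the 67 members (points, coloured by family). Lcn8, Lcn9 and Cst12 lie far right near 0 on the vertical axis, whereas Lcn5 (8.89 and -3.72) and Spint4 (4.67 and -3.73) lie right and far down.

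In wild type, 49 of the 67 members passed in neither direction between the diets, and some members were higher on the high fat diet, with Spink10, Spint4 and Lcn5 furthest up. By limma 17 members were higher and 1 was lower in WT HFD than in WT RD, and 4.69% and 6.11% of all genes were called higher and lower. Called higher were 6 of 20 Defb, 3 of 3 Spint, 3 of 8 Lcn, 2 of 7 Spink, 2 of 11 Wfdc and 1 of 8 Cst genes. The median log2 difference was 0.13 for the members and 0.02 over all genes. Spink10 was higher by 5.05 ± 0.17, Spint4 by 4.37 ± 0.14 and Lcn5 by 3.97 ± 0.14 (SE, limma adjusted p of at most 2.42e-18). Wfdc15b, Defb11, Wfdc6a, Defb2 and Spink8 followed with 3.58, 3.47, 3.09, 2.89 and 2.08, and Lcn2, Defb29, Spint2, Defb9 and Lcn12 with 1.92 to 1.30 (limma adjusted p of at most 6.72e-06). The WT RD arrays serve here and in the regular-diet comparison of genotypes, so these differences share them. The 17 hold all of the 14 genes named above but Defb42, and since those were chosen on comparisons with the same WT arrays, this is no independent support. Smaller calls depended on single arrays, and some on the processing. Defb1, at 0.60, did not pass without array a of WT RD (0.53) or array b of WT HFD (0.52), and Spint1, at 0.54, without either WT RD array (0.54 and 0.55) or array b of WT HFD (0.36). Cst13, a testicular cystatin in mice, at 0.48, did not pass without array b of WT RD (0.35) or array b of WT HFD (0.35), and Defb10, at 0.47, without array b of WT RD (0.26) or either WT HFD array (0.46 and 0.48). Cst13 also did not pass after quantile normalization again (0.40, limma adjusted p = 0.0686), nor Defb10 with the next brightest probe sets of genes (adjusted p = 0.058) or with arrays centred on their medians (adjusted p = 0.0641). Wfdc21 was lower, with a log2 difference of -0.59 ± 0.11 (limma adjusted p = 0.000425). Cuzd1, an epididymal gene outside the families, read 12.98 and 13.08 in WT HFD and 6.47 and 6.28 in WT RD. With 12.07 and 12.16 in Smad3-/- HFD and 12.56 and 12.43 in Smad3-/- RD, it was low in WT RD only. Of the 19 epididymal genes outside the families 9 were higher and 0 lower, and of the 14 germ cell markers 7 were higher and 1 lower.

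In Smad3-/- mice the diet difference was mostly downward. By limma 4 members were higher and 29 lower in Smad3-/- HFD than in Smad3-/- RD, against 11.5% and 5.82% of all genes, and the median log2 difference was -0.23 for the members and -0.0041 over all genes. The largest falls were those of Lcn8 and Lcn5, by 8.74 and 8.65 on the log2 scale, Cst12 by 6.67, Cst11 by 6.43, Lcn9 by 6.29 and Lcn2 by 5.71, with SEs of 0.12 to 0.15 (limma adjusted p of at most 2.94e-22). These falls share the Smad3-/- RD arrays with the regular-diet comparison of genotypes, so they are no independent support for it. In Smad3-/- HFD, Lcn8, Lcn9, Cst11, Cst12 and Pate5 were below the array median, as they were in WT RD and in WT HFD. Defb11 went up by 1.09 ± 0.15 (limma adjusted p = 2.46e-06) and Wfdc21 by 0.62 ± 0.11 (limma adjusted p = 0.000144). Wfdc15b, at 0.54, did not pass without array b of Smad3-/- RD (0.41) or array b of Smad3-/- HFD (0.44), or after quantile normalization again (0.25), and Rnase4, at 0.45, did not pass without array b of Smad3-/- HFD (0.33). Without that last array, 2 members were called higher. Wfdc2 was lower at -0.43, which did not pass without array a of Smad3-/- RD (-0.35), array b of Smad3-/- RD (-0.50) or array a of Smad3-/- HFD (-0.23), nor with the next brightest probe sets of genes (adjusted p = 0.0588) or centred arrays (adjusted p = 0.0538). In the same comparison 9 of the 19 epididymal genes outside the families were lower and 2 higher, and 10 of 14 general epithelial markers were lower and 0 higher. Of the white adipocyte markers 6 of 7 were higher, and of the macrophage markers 5 of 8. All 8 skeletal muscle markers were higher, with a summed level of 14.30 to 14.40 in Smad3-/- HFD and 10.19 to 10.21 in Smad3-/- RD. The part of these lists was not tested.

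The diet responses of the genotypes differed in most of these genes. The interaction, the diet difference in Smad3-/- minus that in WT, was called lower for 35 members and higher for 2 by limma, against 6.77% and 12.0% of all genes, with a median of -0.71 for the members and -0.02 over all genes. All 14 genes named above as called in both genotype comparisons and 19 of the other 22 were among the 35. For the 14 the direction is fixed by their choice, since the interaction is the difference of the genotype comparisons that chose them. For the other 22 it is favoured by their choice as higher in Smad3-/- RD, since the interaction subtracts the regular-diet genotype difference. Neither count is independent support. Lcn5 had the lowest value of the members, -12.61 ± 0.20 (SE, limma adjusted p = 4.08e-26), the sum of a fall in Smad3-/- and a rise in WT. Lcn8, at -9.05 ± 0.20, came from the fall in Smad3-/- with a diet difference in WT that did not pass. Spint4 was at -8.40, Lcn2 at -7.63, Defb42 at -3.30 and Spint2 at -3.12. Wfdc21 and Rnase4 were the 2 higher ones, at 1.21 ± 0.16 and 0.73 ± 0.16 (limma adjusted p of at most 0.000814).

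In obese mice, few members differed between anti-TGF-beta and IgG, and Wfdc21 differed by far the most. On all 4 antibody arrays 60 of the 67 members, and 34 of the 36 that were higher in Smad3-/- RD, were below the array median over genes. By limma 2 members were higher and 4 lower with anti-TGF-beta than with IgG, against 11.7% and 12.6% of all genes. The median log2 difference was -0.03 for the members and -0.0031 over all genes. Spink8, for example, read 4.53 and 4.85 with anti-TGF-beta and 4.49 and 4.97 with IgG, and Defb42 read 4.01 and 4.02 with anti-TGF-beta and 4.29 and 4.55 with IgG. Wfdc21 stood at 9.04 and 9.02 with anti-TGF-beta and 11.60 and 11.66 with IgG, a log2 difference of -2.60 ± 0.11 (SE, limma adjusted p = 1.62e-16). Lcn2 read 7.80 and 7.80 with anti-TGF-beta and 8.35 and 8.24 with IgG, a difference of -0.50 ± 0.12 (limma adjusted p = 0.00352). Of 8 macrophage markers 7 were lower, with a summed level of 13.97 to 14.00 with anti-TGF-beta and 15.18 to 15.19 with IgG. Of 9 neutrophil markers 2 were lower and 1 higher, with a summed level of 9.08 to 9.11 with anti-TGF-beta and 9.82 to 9.91 with IgG. All 8 skeletal muscle markers were higher, with a summed level of 14.54 to 14.58 with anti-TGF-beta and 10.40 to 10.53 with IgG. The part of these cells in the differences of Wfdc21 and Lcn2 was not tested.

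The other antibody calls depended on single arrays, and those of Wfdc1, Defb42 and Cst3 also on other settings. Wfdc1, a secreted protein of prostate stroma, was at 0.58 and did not pass without array a of anti-TGF-beta, at 0.42, or after quantile normalization again, at 0.39 (adjusted p = 0.144). Rnase4, at 0.36, did not pass without array a of IgG, at 0.32, or array b of anti-TGF-beta, at 0.28. Defb42, at -0.41, did not pass without array b of IgG (-0.27), array a of anti-TGF-beta (-0.40) or array b of anti-TGF-beta (-0.41). Cst3, at -0.33, did not pass without any 1 of the 4 arrays, with values from -0.40 to -0.25. Defb42 also did not pass in a fit without the intensity trend, with the mean of probe sets or with only the arrays of the experiment (limma adjusted p of 0.0555, 0.0506 and 0.0716). Cst3 did not pass without the trend, with the mean of probe sets, with the next brightest probe sets of genes or with centred arrays (limma adjusted p of 0.0919, 0.077, 0.0521 and 0.0554). Leaving out array a or array b of anti-TGF-beta left 3 of the 6 calls.

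Members that lie side by side did not always move together. Of the 67, 28 lie on chromosome 2 and 15 on chromosome 8. The Defb11 and Defb15 probe sets belong to direct neighbours, and in Smad3-/- HFD against Smad3-/- RD Defb11 was higher by 1.09 whereas Defb15 had a log2 difference of -3.17. Lcn8 and Lcn5 parted in WT HFD against WT RD, where Lcn5 differed by 3.97 and Lcn8 stood at 5.36 and 5.28 in WT HFD and 5.07 and 4.95 in WT RD. The differences between such neighbours were not tested. In all, 25 members were called in no comparison, and 29 were below the array median over genes on all 12 arrays, where values may be background. Some of the 29 were above the median over all probe sets, such as Spink5 at 6.83 and 6.85 in Smad3-/- RD. The members that had several probe sets were Defb1, Lcn4, Spint2 and Wfdc3. The probe sets of Spint2 gave the same calls in all 6 comparisons, at 1.99 and 1.96 on the regular diet. For Defb1 the dimmer probe set was lower in Smad3-/- HFD than in WT HFD, at -0.93, where the brighter one, at -0.09, did not pass.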

How the data were processed

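Total RNA of 12 samples was measured on 1 array each. The deposited values are log2 values made with RMA in Partek, per the submitters' processing notes, with no versions given in the sources used here. The medians of the 8 and the 4 arrays differ, so each experiment may have had its own normalization, and no comparison crosses them. The number of arrays limits the precision.

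The platform annotation gives 1 gene for 34958 of the 45101 probe sets, several genes for 932 and no gene for 9211. This yields 18194 genes, each read from its brightest probe set by the mean of all 12 arrays. The 67 members had 71 such probe sets, 4 members had several, 1 probe set of these families that named several genes was left out, and all 67 symbols matched the RefSeq table of GRCm38.p6. No per-sample column was left unused. Cst8 and Rnase9 are not analysed here.

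Group means were fitted to all 12 arrays at once with limma 3.58.1 in R 4.3.3 (lmFit), and contrasts between them were tested two-sided with eBayes, allowing the variance to follow the intensity. P-values were adjusted over all genes by the method of Benjamini and Hochberg. The fit had 6 residual and 20.4 prior degrees of freedom, and was tested on simulated data. Summed levels add the unlogged values of a list's genes. The members and the marker lists were chosen with earlier results of these data known.

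Named were, per comparison, up to 20 members with the highest and up to 10 with the lowest log2 difference among called members whose arrays did not overlap (not asked of the interaction), the brightest member of each family, and preset members and markers. Lcn3, Lcn4, Lcn11, Wfdc15a, Wfdc3, Defb13, Defb19, Defb41, the members outside the 10 lowest interactions and the Y-linked genes were named after their values were seen. Alternatives were eBayes without a trend, leaving out dim genes (below the 40th percentile), averaging the probe sets of a gene, the next brightest probe set, arrays centred on their medians, quantile normalization again, only the arrays of an experiment, the replicate letter as a block, a tested minimum change of 1.5-fold, and the omission of each array, where the lone array of a group is taken to vary like the other groups.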

Additional observations from a re-analysis of the deposited data

Results flagged for a closer look

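In 37 of the 67 members, the diet differences of the genotypes differed by limma's interaction term. The values are log2 differences, the diet difference in Smad3-/- minus that in WT. Among the lipocalins they were -12.61 for Lcn5, -9.05 for Lcn8, -7.63 for Lcn2, -6.07 for Lcn9 and -4.05 for Lcn12. The cystatins Cst12, Cst11 and Cst13 had -6.44, -6.29 and -0.56, Rnase10 had -5.14, and Pate5 and Pate6 had -4.87 and -3.79. Of the beta-defensins, Defb29 had -5.35, Defb35 -4.40, Defb21 -4.06, Defb2 -3.40, Defb42 -3.30, Defb15 -3.28, Defb11 -2.38 and Defb41 -2.02. Smaller values were those of Defb9 at -1.24, Defb10 at -0.86, Defb13 at -0.84, Defb19 at -0.78 and Defb1 at -0.77. Among the protease inhibitors, Spint4 had -8.40, Spint2 -3.12, Spint1 -1.44, Spink10 -4.86, Spink2 -3.72, Spink8 -2.91, Spink12 -2.84 and Spink5 -2.40. Wfdc6a, Wfdc15b and Wfdc2 had -3.90, -3.04 and -0.71. Wfdc21 and Rnase4 went the other way, at 1.21 and 0.73.

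Some calls depended on single arrays. Defb1 did not pass without array b of Smad3-/- RD (-0.58) or array b of Smad3-/- HFD (-0.71). Wfdc2 did not pass without array a of Smad3-/- RD (-0.63) or array a of Smad3-/- HFD (-0.51). Defb10 did not pass without array b of WT RD (-0.65), nor Defb13 without array a of Smad3-/- RD (-0.63). Cst13 did not pass without any 1 of 6 arrays, namely array b of WT RD, array b of WT HFD and each Smad3-/- array (-0.62 to -0.43), nor with the next brightest probe sets of genes (adjusted p = 0.0654), centred arrays (0.0816), quantile normalization again (0.143) or the replicate letter as a block (0.0519).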

How the results depend on the processing

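Over 9 alternatives and the leaving out of each array, 2608 values of 197 pairs of gene and comparison were recomputed. Of these 2492 kept their side of the threshold, of which 2425 kept their sign and 67, not called, changed it. A call was lost in 103 and gained in 13, and no called value changed sign. Without dim genes, 24 members remained to be tested, with 18 called and 15 higher in Smad3-/- RD against WT RD, 1 higher in Smad3-/- HFD against WT HFD, 17 called and 12 lower in Smad3-/- HFD against Smad3-/- RD, and 17 called and 15 lower for the interaction. Fewer members tested lowers these counts by construction. A minimum of 1.5-fold left 1 lower in Smad3-/- RD against WT RD, 7 called and 7 lower in Smad3-/- HFD against WT HFD, 0 lower in WT HFD against WT RD, 1 higher in Smad3-/- HFD against Smad3-/- RD, 1 higher for the interaction, and 1 called, 0 higher and 1 lower for the antibody. With the mean of probe sets, and with quantile normalization again, 1 member was higher in Smad3-/- HFD against WT HFD, and the cause was not tested. Leaving out each array gave 31 to 34 higher and 3 lower in Smad3-/- RD against WT RD (34 to 37 called), 0 higher and 15 to 18 lower in Smad3-/- HFD against WT HFD, 14 to 16 higher and 1 lower in WT HFD against WT RD (15 to 17 called), 2 to 5 higher and 25 to 28 lower in Smad3-/- HFD against Smad3-/- RD (30 to 32 called), 2 higher and 32 to 35 lower for the interaction (34 to 37 called), and 1 to 2 higher and 2 to 4 lower for the antibody (3 to 5 called). The labels do not say whether same-lettered arrays were paired. Between compared groups, deviations of same-lettered arrays correlated over genes at 0.12, 0.17, 0.07, -0.16 and -0.07, which cannot settle this. With the replicate letter as a block, 39 members were called in Smad3-/- RD against WT RD as without it, the interaction had 36 called against 37 without the block, and the number called in the other 4 comparisons did not change. Values below the array median over genes, as in 29 members on all 12 arrays, may be background and compress folds.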
